A study of Mus musculus with 23 samples.

Results

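Nuclear genes named for subunits of the oxidative phosphorylation complexes were followed in RNA-seq libraries of mouse hippocampus. Members were chosen by symbol alone: names that begin with Ndufa, Ndufb, Ndufc, Ndufs, Ndufv, Uqcr, Cox4 to Cox8 or Atp5, and Sdha to Sdhd, without names that contain -ps, which mark pseudogenes, and without the Ndufaf assembly factors. The rule found 89 of the 52636 genes in the files, with 41 in complex I, 4 in complex II, 8 in complex III, 19 in complex IV and 17 in complex V. Of these, 81 had enough counts to be tested (36, 4, 8, 16 and 17). The rule goes by name, so it kept 4 genes annotated as processed pseudogenes: Ndufa11b, Ndufb4c and Ndufs6b, which were not tested, and Cox6c2, which was tested and called in no comparison.

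The 4 groups were wild-type (WT) mice in normoxia (6 libraries), WT mice in hypoxia (6), P301S mice in normoxia (5) and P301S mice in hypoxia (6). Every group shared a mixed background of C57Bl6 and Balbc. P301S names a tau mutation that causes an inherited form of frontotemporal dementia, and mice that carry it as a transgene build up tau deposits. The sources used here do not give the transgene's promoter, the age or sex of the mice, or the hypoxia regimen, beyond a title that speaks of chronic intermittent hypoxia. The sample titles carry a number whose meaning is not given. In WT normoxia it is 66 for replicates 1 to 5 and 37 for replicate 6. In WT hypoxia it is 31 for replicates 1 to 4 and 32 for replicates 5 and 6. Each P301S library has its own number. Whether WT libraries that share a number are independent is not known. Nothing in the labels ties a library to its own animal. The p-values therefore rest on library-to-library spread, which may be partly technical.

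Oxidative phosphorylation takes place in the inner mitochondrial membrane. Complex I accepts electrons from NADH and complex II from succinate, complex III passes them from ubiquinol to cytochrome c, and complex IV passes them to oxygen. Complexes I, III and IV pump protons, and complex V, the ATP synthase, lets the protons flow back and makes ATP. Most subunits are encoded in the nucleus and a few core subunits in mitochondrial DNA, so both sets are needed to build a complex. Neurons draw most of their ATP from this pathway.

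Each library held between 19.1 and 25.8 M counts, and the members took 0.609% to 0.769% of them. Neuronal markers were abundant in every library (Snap25 ran from 1877 to 2328 CPM, counts per M). Levels of choroid plexus markers varied widely within every group: Ttr, the choroid plexus transthyretin gene, ran from 30.05 to 3174 CPM. The 6 libraries with the lowest mean log2 level of 12 such markers were WT normoxia replicate 4, WT hypoxia replicates 1, 4 and 5, and P301S hypoxia replicates 1 and 4. Genes were tested by edgeR's quasi-likelihood test across 17788 genes and called where the Benjamini-Hochberg adjusted p was below 0.05. Fold changes are log2 values with their standard errors (SE). In whole tissue, fewer cells of a type and less RNA per cell cannot be told apart.

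Promoters of subunit genes carry sites of a few shared transcription factors, among them nuclear respiratory factor 1 (NRF1) and the ETS factor GABPA. The sequences below show, for each complex, the stretch upstream of the called member with the lowest normoxia p whose 150 bases hold a match to a searched motif. Each is 150 bases long, is read 5′ to 3′ toward the gene from RefSeq on GRCm38.p6, and lies upstream of both the RefSeq and the deposited gene start. All are on the minus strand: Ndufs5 at chr4:123718203-123718352, Sdhd at chr9:50603850-50603999, Uqcrh at chr4:116075072-116075221, Cox6a1 at chr5:115348982-115349131 and Atp5e at chr2:174464106-174464255. Capitals mark matches, on either strand, to GCGCANGCG (NRF1) or CCGGAAG (ETS).
Ndufs5: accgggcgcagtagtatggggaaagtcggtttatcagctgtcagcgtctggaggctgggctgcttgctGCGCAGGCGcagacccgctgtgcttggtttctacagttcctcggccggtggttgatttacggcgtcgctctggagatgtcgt
Sdhd: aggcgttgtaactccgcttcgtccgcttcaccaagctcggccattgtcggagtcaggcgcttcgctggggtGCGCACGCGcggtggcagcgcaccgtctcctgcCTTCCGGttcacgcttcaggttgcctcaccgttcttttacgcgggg
Uqcrh: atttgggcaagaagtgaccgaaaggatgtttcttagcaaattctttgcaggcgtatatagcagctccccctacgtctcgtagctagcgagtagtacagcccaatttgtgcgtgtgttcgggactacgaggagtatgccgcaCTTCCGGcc
Cox6a1: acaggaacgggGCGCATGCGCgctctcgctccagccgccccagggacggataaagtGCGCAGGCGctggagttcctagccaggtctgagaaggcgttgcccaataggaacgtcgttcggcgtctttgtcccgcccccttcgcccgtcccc
Atp5e: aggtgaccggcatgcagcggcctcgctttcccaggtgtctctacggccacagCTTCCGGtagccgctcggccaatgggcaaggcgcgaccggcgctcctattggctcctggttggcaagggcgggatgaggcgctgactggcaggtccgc
Ndufs5, Cox6a1 and Sdhd hold the NRF1 letters, and Sdhd, Uqcrh and Atp5e the ETS letters. These 5 genes fell in P301S normoxia, as described below.

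In normoxia, subunit genes of all 5 complexes were lower in P301S than in WT. Of the 81 tested members 41 fell and none rose, against 6.35% of all 17788 genes called and 3.78% called lower. The median log2 fold change of the members was -0.22, beside 0.01 for all tested genes, and 76 of the 81 values were below 0. The count was 17 of 36 in complex I, 3 of 4 in complex II, 6 of 8 in complex III, 8 of 16 in complex IV and 7 of 17 in complex V, with medians of -0.21, -0.17, -0.28, -0.26 and -0.18. The 2 groups did not overlap in 22 of the 81 members, all lower in P301S, where 1.72% of all tested genes were lower without overlap. Most differences were modest in size. The largest called one was -0.50, for Uqcrc1.

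**Figure D1:**
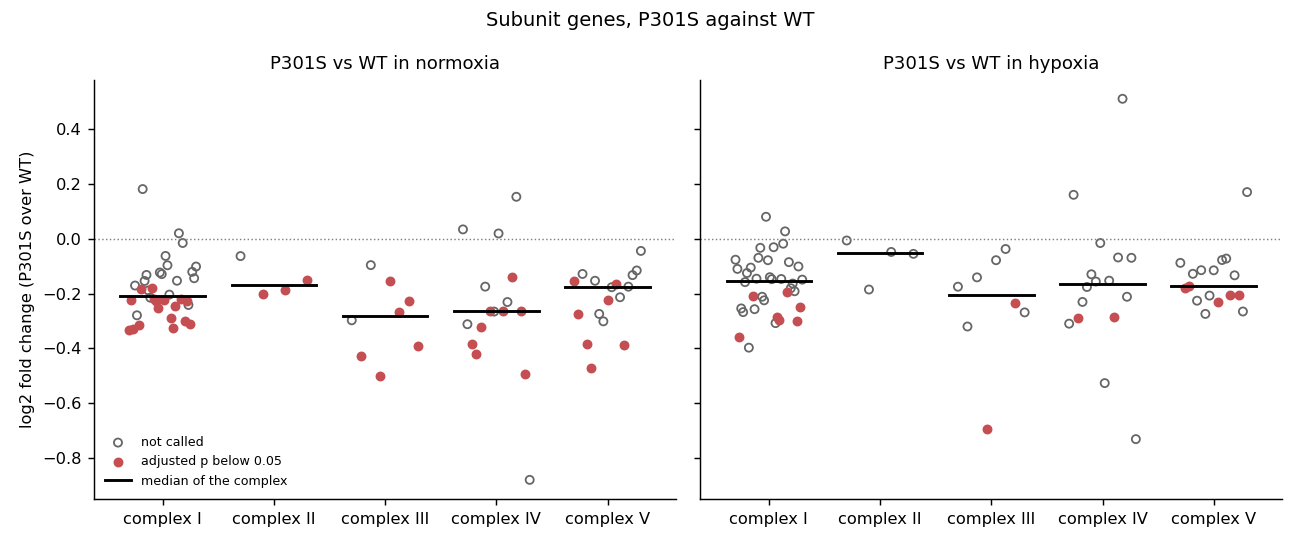
Log2 fold change of each tested subunit gene (vertical axis, P301S over WT) by complex, in normoxia (left) and hypoxia (right). Filled points passed an adjusted p of 0.05, open points did not, and bars are medians. In both panels 76 of the 81 points lie below 0, and every filled point does.

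Complex I is the largest of the complexes, with a membrane arm and an arm that holds the flavin and the iron-sulphur clusters. Ndufb9, an accessory subunit of the membrane arm (ENSMUSG00000022354, chromosome 15, 58933810 to 58939489, GRCm38), had the lowest p of the complex. Its level ran from 79.7 to 93.8 CPM in WT normoxia (median 86.0). The 5 P301S normoxia libraries had 79.6, 63.1, 64.8, 66.3 and 69.4 CPM. The groups did not overlap, although P301S replicate 1 came within 0.1 CPM of the lowest WT library. Ndufb9 fell by 0.32 (SE 0.0619, edgeR adjusted p = 0.00509).

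Among the core subunits of complex I, which carry out the redox chemistry, the picture was mixed. Ndufs8, an iron-sulphur subunit, fell by 0.31 (SE 0.0811, edgeR adjusted p = 0.0251). The test was not passed by Ndufs7 at -0.24 (adjusted p = 0.0983), Ndufv2 at -0.14 (0.07), Ndufv1, which binds NADH and the flavin, at -0.12 (0.239), and Ndufs1, the largest core subunit, at 0.02 (0.864). Ndufs1 ran from 59.0 to 66.9 CPM in WT normoxia and from 56.4 to 69.1 CPM in P301S normoxia, so the P301S libraries lay on both sides of the WT range. Its count is uncertain, since 44.5% of the gene lies under another gene, where reads were not counted. Ndufs3 could not be tested: it had 67 counts over all 23 libraries.

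Accessory subunits made up most of the complex I calls, as they did most of its tested members. Ndufa10 fell by 0.22 (SE 0.045, edgeR adjusted p = 0.00632), from 136 ± 8.35 CPM (SD, n = 6) in WT to 116 ± 3.65 CPM (n = 5) in P301S, with no overlap between the groups. Ndufs5 fell by 0.30 (adjusted p = 0.0167), Ndufb8 by 0.29 (adjusted p = 0.017) and Ndufa1 by 0.33 (adjusted p = 0.017), also without overlap. Ndufb8 lies 62.0% under another gene. Other called members were Ndufa3 (-0.32), Ndufa9 (-0.18), Ndufa11 (-0.33), Ndufab1 (the mitochondrial acyl carrier protein, -0.22), Ndufb4 (-0.22), Ndufb10 (-0.23), Ndufb11 (-0.25), Ndufc1 (-0.24) and Ndufs6 (-0.23). Ndufa4, first assigned to complex I and now placed in complex IV, fell by 0.18 (adjusted p = 0.0438). Ndufs4, whose loss causes a Leigh-like disease in mice, was at -0.02 (adjusted p = 0.913).

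Complex II feeds electrons from the citric acid cycle into the chain and has no subunit encoded in mitochondrial DNA. Its iron-sulphur subunit gene Sdhb ran from 86.7 to 95.7 CPM in WT normoxia (median 91.5), while the 5 P301S libraries had 86.0, 76.5, 78.2, 78.7 and 76.5 CPM. All 5 lay below every WT library, and Sdhb fell by 0.20 (SE 0.054, edgeR adjusted p = 0.0293). The membrane anchor genes Sdhc (-0.19, adjusted p = 0.0488) and Sdhd (-0.15, adjusted p = 0.0465) fell by similar amounts. Sdha, the flavoprotein with the succinate site, had 393 ± 13.5 CPM in WT (n = 6) and 377 ± 9.32 CPM in P301S (n = 5). Its ranges overlapped and its change of -0.06 (SE 0.0372, adjusted p = 0.325) did not pass the test.

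In complex III, Uqcrfs1 encodes the Rieske iron-sulphur protein (ENSMUSG00000038462, chromosome 13, 30540308 to 30545362). It ran from 69.9 to 82.2 CPM in WT normoxia (median 76.5) and was at 68.5, 63.0, 59.9, 61.8 and 66.0 CPM in P301S normoxia, without overlap. Uqcrfs1 fell by 0.27 (SE 0.0452, edgeR adjusted p = 0.00256), so its fitted level fell by 16.9%. The hinge protein gene Uqcrh (-0.23, adjusted p = 0.0161) and the core protein gene Uqcrc2 (-0.15, adjusted p = 0.0328) also fell without overlap. The small subunit genes Uqcrq (-0.39, adjusted p = 0.0167) and Uqcr11 (-0.43, adjusted p = 0.0416) fell too, while Uqcr10 (-0.30, adjusted p = 0.0561) and Uqcrb (-0.10, adjusted p = 0.415) did not pass the test. Uqcrc1, the other core protein gene, ran from 15.0 to 23.6 CPM in WT and was at 14.6, 10.3, 14.9, 11.2 and 14.0 CPM in P301S, without overlap. Its change was the largest of the called members (-0.50, SE 0.126, adjusted p = 0.0213). It lies on chromosome 9 (108936633 to 108949623) beside Slc26a6, Celsr3 and Nckipsd, which had medians of 2, 1 and 1 counts per library. On the other side Col7a1 had a median of 199 counts. Uqcrc1 itself had a median of 363 counts, and whether the near-empty stretch on 1 side of it bears on its count was not tested.

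Complex IV joins nuclear subunits to a catalytic core encoded in mitochondrial DNA. Cox6b1, on the outer side of the complex, had the lowest p of its genes (ENSMUSG00000036751, chromosome 7, 30616861 to 30626151). Its level ran from 114 to 128 CPM in WT normoxia (median 122) and was 101.6, 92.4, 101.1, 94.7 and 94.2 CPM in P301S. Every P301S library lay more than 10 CPM below the lowest WT library, and Cox6b1 fell by 0.32 (SE 0.0511, edgeR adjusted p = 0.00149). Cox5b, the zinc-binding subunit, ran from 93.3 to 119.7 CPM in WT and was at 91.5, 81.3, 77.5, 79.9 and 76.5 CPM in P301S. It fell by 0.38 (SE 0.0666, adjusted p = 0.00282), again without overlap. Cox8a (-0.49, adjusted p = 0.00352) and Cox6a1 (-0.42, adjusted p = 0.00756) had larger changes, but in both P301S replicate 1 (188 and 149.6 CPM) reached into the WT range. Cox6c (-0.26), Cox7a2 (-0.26), Cox7b (-0.14) and Cox7c (-0.26) fell as well. Cox5a was at -0.31 (adjusted p = 0.0528) and Cox7a2l, a supercomplex assembly factor, at -0.23 (adjusted p = 0.0527). Cox4i1, the main form of the regulatory subunit, had 0 counts in every library because it lies wholly under a predicted gene, and it could not be assessed.

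In complex V, Atp5k encodes the small membrane subunit e, which helps pairs of ATP synthases to form (ENSMUSG00000050856, chromosome 5, 108433244 to 108434448). It had the lowest p of all members. WT normoxia libraries ran from 32.6 to 37.99 CPM (median 35.2), and the P301S libraries had 28.0, 25.9, 25.4, 27.8 and 28.2 CPM. The groups were well apart, and Atp5k fell by 0.39 (SE 0.0558, edgeR adjusted p = 0.000555), so its fitted level fell by 23.5%.

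The catalytic head of the enzyme is made of alpha and beta subunits. Atp5b, the beta subunit gene (ENSMUSG00000025393, chromosome 10, 128083273 to 128090391), ran from 759 to 889.6 CPM in WT normoxia (median 867) and was at 764, 698, 683, 674 and 709 CPM in P301S. The groups overlapped only through WT replicate 1 (759) and P301S replicate 1 (764), and Atp5b fell by 0.28 (SE 0.0472, adjusted p = 0.00266). The alpha subunit gene Atp5a1 had 697 ± 23.8 CPM in WT and 625.4 ± 13.5 CPM in P301S, without overlap, and fell by 0.16 (SE 0.0425, adjusted p = 0.032). In the central stalk, Atp5d (-0.38, adjusted p = 0.0128) and Atp5e (-0.47, adjusted p = 0.00657) fell, and the gamma subunit gene Atp5c1 was at -0.13 (adjusted p = 0.0919). Atp5j, a part of the peripheral stalk, fell by 0.17 (adjusted p = 0.0344).

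**Figure D2:**
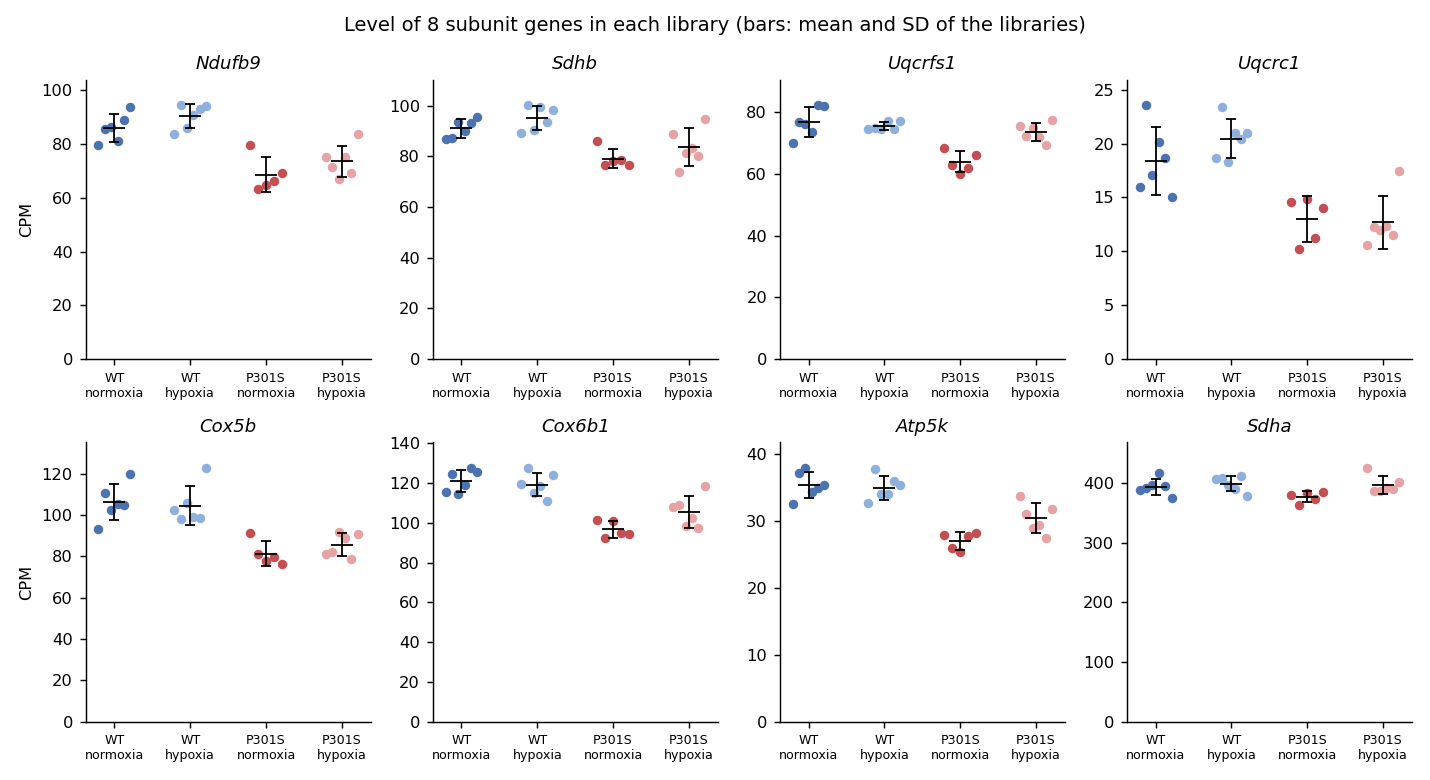
Level in CPM (vertical axis, from 0) of 8 subunit genes in each library, by group, with the mean and SD of the libraries. In normoxia the P301S points of Ndufb9, Sdhb, Uqcrfs1, Uqcrc1, Cox5b, Cox6b1 and Atp5k all lie below the WT points, while those of Sdha overlap them.

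The c ring of the ATP synthase is built from identical copies of subunit c, which 3 genes encode. Atp5g3 fell in normoxia (-0.22, SE 0.0508, adjusted p = 0.0128), while Atp5g1 (-0.27, adjusted p = 0.0553) and Atp5g2 (-0.30, adjusted p = 0.0572) did not pass the test. Of their summed CPM, Atp5g3 gave 54.3% ± 0.878 in WT normoxia (SD, n = 6) and 55.5% ± 3.15 in P301S normoxia (n = 5), and Atp5g1 30.2% ± 0.625 and 29.6% ± 2.84. Both differences in share were smaller than the SD of the P301S libraries. Near-identical pseudogenes of these genes make their counts uncertain.

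In hypoxia, subunit genes were again lower in P301S, with fewer calls. Of the 81 tested members 16 fell and none rose, against 1.87% of all genes called and 1.34% called lower. The median was -0.16, beside 0.00 for all tested genes, and 76 values were below 0. Calls were 7 of 36 in complex I, 0 of 4 in complex II, 2 of 8 in complex III, 2 of 16 in complex IV and 5 of 17 in complex V, with medians of -0.15, -0.05, -0.21, -0.17 and -0.17. In complex II, edgeR gave 1 of 4 members an unadjusted p below 0.05, beside 3232 of all 17788 genes. The groups did not overlap in 7 members, all lower in P301S, where 1.25% of all tested genes were lower without overlap.

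Of the 16, 10 had fallen in normoxia too, among them Atp5b, Atp5k, Cox5b, Ndufa11, Ndufb8, Ndufb9, Ndufs8, Uqcrc1 and Uqcrh. Over all 81 tested members, 41 were called in normoxia, and whether the 16 differed from this share was not tested. The hypoxia comparison uses other libraries than the normoxia one, but both share 1 estimate of dispersion. The 6 members called in hypoxia only were Atp5c1, Atp5h, Atp5mpl, Cox7a2l, Ndufa6 and Ndufv2. Ndufv2, an iron-sulphur subunit of the NADH-oxidizing end of complex I, ran from 90.2 to 99.7 CPM in WT hypoxia (median 94.7) and from 74.2 to 89.4 CPM in P301S hypoxia (median 78.1). It fell by 0.25 (SE 0.0453, edgeR adjusted p = 0.0066), without overlap. Uqcrc1 had the largest called change (-0.69, SE 0.12, adjusted p = 0.00409), from a range of 18.3 to 23.4 CPM in WT hypoxia to 10.6 to 17.4 CPM in P301S hypoxia. Ndufb9 fell by 0.30 (SE 0.0588, adjusted p = 0.0122) and Cox5b by 0.29 (SE 0.0633, adjusted p = 0.0212), both without overlap. Uqcrh fell by 0.24 (SE 0.0509, adjusted p = 0.0195), Atp5b by 0.18 (SE 0.0448, adjusted p = 0.0377) and Atp5k by 0.20 (SE 0.0528, adjusted p = 0.0463), and their groups overlapped.

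Uqcrfs1 and Cox8a, which fell in normoxia, did not pass the test in hypoxia. Uqcrfs1 was at -0.04 (SE 0.0429, adjusted p = 0.696) in hypoxia, with 75.5 ± 1.34 CPM in WT and 73.6 ± 2.93 CPM in P301S (n = 6 each). Cox8a was at -0.07 (adjusted p = 0.716). Cox5a was called in neither condition, with -0.31 in normoxia (adjusted p = 0.0528) and 0.16 in hypoxia (adjusted p = 0.362). The difference of the genotype effects between the conditions was tested as an interaction, and edgeR called 0 of the 81 members against 0.0394% of all genes. Unadjusted, edgeR gave 9 of the 81 members p below 0.05, beside 1678 of all 17788 genes, and DESeq2 also called no member. The lowest p of the members was that of Uqcrfs1 (interaction 0.23, SE 0.0622, adjusted p = 0.24), followed by Cox5a (0.47, SE 0.132, adjusted p = 0.274) and Cox8a (0.42, SE 0.123, adjusted p = 0.274).

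Averaged over normoxia and hypoxia, 60 of the 81 members fell in P301S and none rose, against 13.1% of all genes called and 7.76% called lower. The median was -0.19, and 78 values were below 0. By complex, 26 of 36, 3 of 4, 7 of 8, 9 of 16 and 15 of 17 fell. All 47 members called in either condition were among the 60, and 13 were called in the average alone, among them Ndufa5 (-0.13, adjusted p = 0.0112), Ndufs7 (-0.22, adjusted p = 0.0205) and Atp5g1 (-0.27, adjusted p = 0.0039). The lowest p was again that of Atp5k (-0.30, SE 0.0384, adjusted p = 6.47e-05). Among the redox subunits of complexes I and II, Sdha (-0.03, adjusted p = 0.41), Ndufs1 (0.02, adjusted p = 0.731) and Ndufv1 (-0.11, adjusted p = 0.0814) did not pass the test in the average either. Nor did Cox5a, a nuclear subunit around the core of complex IV (-0.08, adjusted p = 0.496).

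The spread between libraries was shared by the members. For each library, the median over the 81 members of log2 CPM, centred on the mean of all libraries, was taken as a description. It ran from -0.01 to 0.18 in WT normoxia (median 0.09) and from 0.02 to 0.15 in WT hypoxia (median 0.09). In P301S normoxia it was -0.03, -0.16, -0.16, -0.12 and -0.15, and in P301S hypoxia it ran from -0.14 to 0.08 (median -0.10). The normoxia groups did not overlap, with WT replicate 1 (-0.01) and P301S replicate 1 (-0.03) nearest to each other. In hypoxia P301S replicate 6 (0.08) lay within the WT range, and the other 5 P301S libraries lay below it. The share of all counts that fell in members ran from 0.69% to 0.767% in WT normoxia, 0.696% to 0.769% in WT hypoxia, 0.609% to 0.656% in P301S normoxia and 0.615% to 0.702% in P301S hypoxia.

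**Figure D3:**
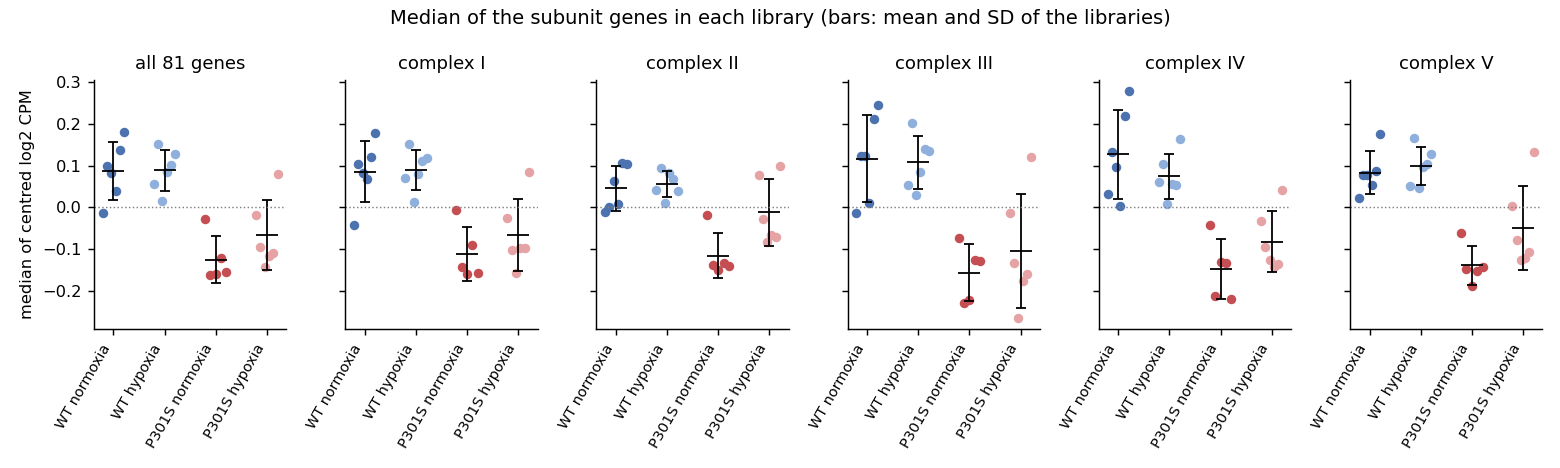
Median of the subunit genes in each library (vertical axis, log2 CPM centred on the mean of all libraries), for all 81 genes and for each complex, with the mean and SD of the libraries. In normoxia the P301S points lie below the WT points for the 81 genes together, and in hypoxia 1 P301S library, at 0.08, lies among the WT libraries.

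Single libraries moved the counts of calls, among members and over all genes. With 1 library left out, the share of all genes called ran from 2.04% to 11.7% in normoxia and from 0.513% to 3.48% in hypoxia. In normoxia, leaving out P301S replicate 2 left 15 members called lower, leaving out P301S replicate 3 left 21, and leaving out P301S replicate 4 or WT replicate 6 left 25 each. Without WT replicate 1 there were 51. In hypoxia the count was 5 without WT replicate 2, WT replicate 5 or P301S replicate 3, and 7 without P301S replicate 2 or 4. It was 8 without WT replicate 4 or 6, 10 without P301S replicate 5, and 31 without P301S replicate 6. No member was called higher in P301S in any of these fits, and the median stayed between -0.25 and -0.19 in normoxia and between -0.21 and -0.15 in hypoxia.

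The level of choroid plexus markers differed between libraries as well. Their centred mean log2 CPM was 0.85 ± 1.82 in WT normoxia, -0.70 ± 2.03 in WT hypoxia, 0.52 ± 1.13 in P301S normoxia and -0.58 ± 1.84 in P301S hypoxia (SD). All 12 markers were below 0 in the normoxia comparison of the genotypes and 9 of 12 in the hypoxia comparison, and none was called. With this score as a covariate 40 members were called lower in normoxia and 18 in hypoxia, against 6.7% and 2.51% of all genes called. Without the 6 libraries lowest in these markers, 19 members were called in normoxia and 0 in hypoxia, against 2.16% and 0.089% of all genes. In that hypoxia fit, edgeR gave 33 members and 2531 of all 17977 genes an unadjusted p below 0.05. The medians of the members were -0.22 and -0.17. Neuronal markers gave 3 of 4 values above 0 in normoxia and 4 of 4 in hypoxia, with none called. Of 2 dentate gyrus markers, C1ql2 fell in normoxia (-0.78, SE 0.171, edgeR adjusted p = 0.0115) and was at -0.09 in hypoxia (adjusted p = 0.814), while Prox1 was at 0.10 and 0.31, not called. All 4 mural cell markers were below 0 in both comparisons (medians -0.10 and -0.24), as were all 4 ependymal markers (-0.28 and -0.26), with none called. Both red blood cell genes were below 0, Hba-a1 at -0.11 in normoxia and -0.82 in hypoxia (adjusted p = 0.108) and Hbb-bs at -0.00 and -0.74 (adjusted p = 0.148). The 2 CA1 markers were at -0.40 and 0.32 in normoxia and at -0.16 and 0.05 in hypoxia. In normoxia 3 of 3 endothelial, 2 of 3 astrocyte, 2 of 3 microglial and 0 of 4 oligodendrocyte values were below 0. In hypoxia 1, 2, 2 and 2 were. None of these markers was called. In normoxia edgeR gave 1 CA1, 1 endothelial and 1 microglial marker an unadjusted p below 0.05. The part of tissue make-up in the members' difference was not tested.

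Few genes of any kind were called for hypoxia in either genotype, and few subunit genes among them. In WT, edgeR called 0 of the 81 members against 0.0731% of all genes, and DESeq2 called no member. By edgeR 7 members had an unadjusted p below 0.05, beside 2058 of all 17788 genes. The median of the members was 0.00, with 39 values below 0. Complex IV had a median of -0.05 with 13 of 16 values below 0, and complex I a median of 0.01. The highest value in WT was that of Ndufa4l2 (0.41, adjusted p = 0.423) and the lowest that of Cox8b (-0.72, adjusted p = 0.675), both at a low level.

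In P301S, Uqcrfs1 rose in hypoxia and no member fell, against 0.41% of all genes called and 0.18% called higher. Uqcrfs1 went from 63.8 ± 3.41 CPM in normoxia (n = 5) to 73.6 ± 2.93 CPM in hypoxia (n = 6), and the highest normoxia library (68.5) lay below the lowest hypoxia library (69.2). The rise was 0.20 (SE 0.0452, edgeR adjusted p = 0.0448). In WT its change with hypoxia was -0.02 (adjusted p = 0.87). The call was lost in 9 of 11 fits without 1 of the libraries compared, with values from 0.18 to 0.23 over all alternatives. DESeq2 called Uqcrfs1, Atp5b (0.16), Cox5a (0.33), Ndufa9 (0.15) and Uqcrc2 (0.13). Over the members the median was 0.07 with 61 of 81 values above 0, and complex V had the highest median (0.10, 14 of 17 above 0). The P301S normoxia libraries serve in this comparison and in the normoxia comparison of the genotypes, so low values there enter both.

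Averaged over genotypes, edgeR called 0 of the 81 members for hypoxia against 1.33% of all genes. An unadjusted p below 0.05 was given by edgeR to 15 members and to 2849 of all 17788 genes. DESeq2 called Uqcrc2 (0.10), Atp5b (0.11) and Atp5a1 (0.09). The median was 0.03 and 63 values were above 0.

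**Figure D4:**
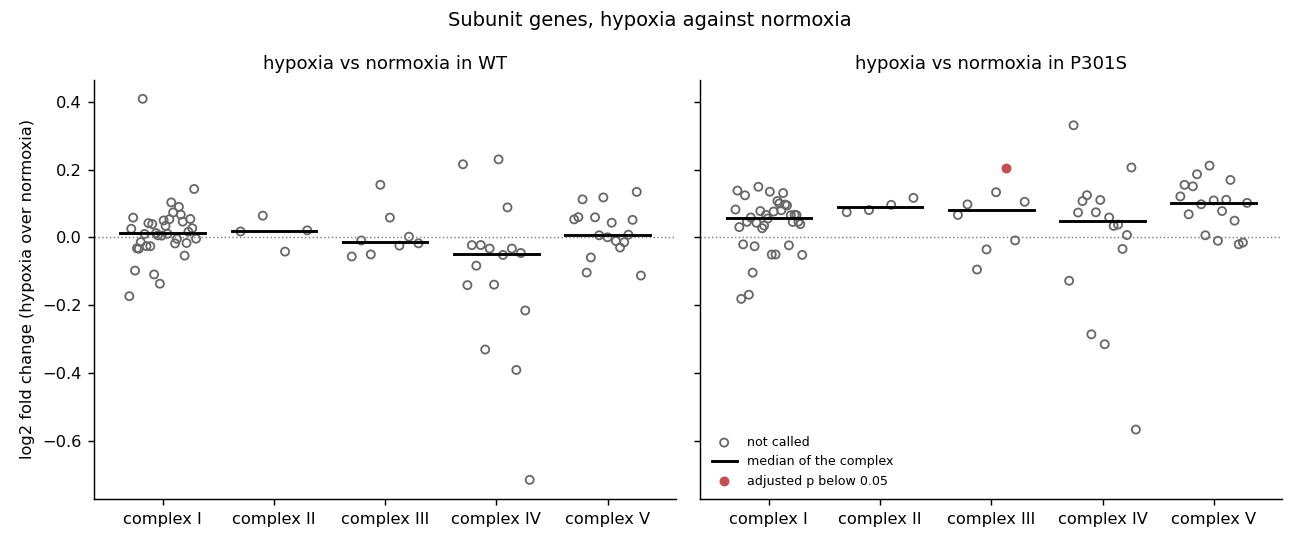
Log2 fold change of each tested subunit gene with hypoxia (vertical axis, hypoxia over normoxia) by complex, in WT (left) and P301S (right). The filled point is Uqcrfs1 (0.20), open points did not pass an adjusted p of 0.05, and bars are medians, which run from -0.05 to 0.02 in WT and from 0.05 to 0.10 in P301S.

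Several subunits exist in forms for special tissues or oxygen levels. Cox4i2, the form of subunit 4 linked to low oxygen, was at 0.935 ± 0.152 CPM in WT normoxia, 1.09 ± 0.285 in WT hypoxia, 0.959 ± 0.317 in P301S normoxia and 0.875 ± 0.206 in P301S hypoxia. Ndufa4l2, a target of hypoxia-inducible factor, ran from 1.01 to 1.54 CPM in WT normoxia and from 1.04 to 2.39 CPM in WT hypoxia. Its P301S libraries lay between 0.984 and 1.72 CPM without hypoxia and between 0.82 and 1.64 CPM with it. The groups overlapped throughout, and neither gene was called in any comparison. The interaction of Ndufa4l2 was -0.58 (SE 0.287, adjusted p = 0.536).

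Muscle and testis forms were near the floor of the test. Cox7a1, a form of heart and skeletal muscle, had means of 1.20 and 1.42 CPM in WT, in normoxia and hypoxia, and of 1.21 and 0.975 CPM in P301S. Cox8b, a muscle form, varied widely within groups, from 0.122 to 2.60 CPM in WT normoxia and from 0.129 to 1.37 CPM in P301S normoxia, and its change of -0.88 (SE 0.635, adjusted p = 0.439) was the lowest of all members. The testis forms Cox6b2 (-0.17, adjusted p = 0.74) and Cox7b2 (0.15, adjusted p = 0.869) were not called either. Per kb of exon, Cox8a reached 284 CPM and Cox6a1 205, while Cox8b and Cox7a1 were at 2.13 and 2.24. Cox6a2 had 0 counts and lies wholly under another gene, and Cox8c had 0 counts.

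The size of the genotype difference in normoxia varied with the length of the gene body, over which read pairs were counted. Members are short, with a median gene body of 7.46 kb beside 22.3 kb for all tested genes. In normoxia, ranks of gene-body length and of log2 fold change correlated at 0.49 across the 81 members and at 0.40 across all tested genes, which are not independent replicates. The 27 members with the shortest gene bodies had a median of -0.27 with 16 called, the next 27 a median of -0.22 with 16 called, and the 27 longest -0.15 with 9 called. The 1779 tested genes with the shortest gene bodies had a median of -0.17 and the 1779 longest 0.11. In the library medians the shortest 1779 genes stood at -0.00 in WT normoxia replicate 1, 0.02 in P301S normoxia replicate 1 and 0.03 in P301S hypoxia replicate 6, the same libraries whose members were nearest to the other genotype. The part of gene length in the members' difference was not tested beyond the fits that follow. With GC content the correlation was -0.34 across members and -0.31 across all genes.

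**Figure D5:**
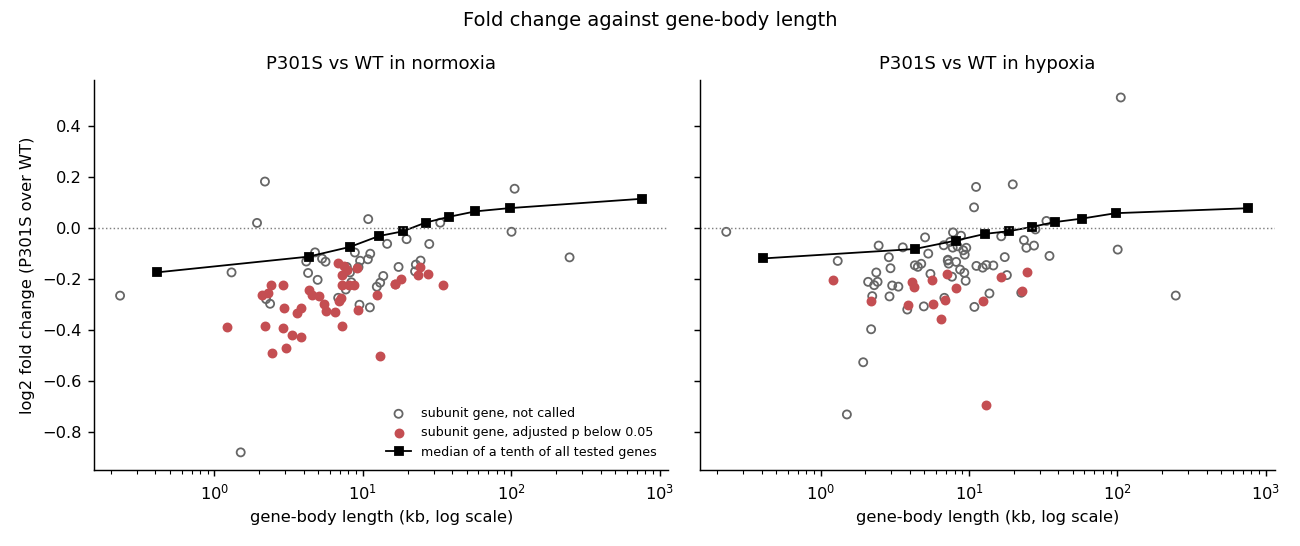
Log2 fold change (vertical axis, P301S over WT) against gene-body length (horizontal axis, kb, log scale) in normoxia (left) and hypoxia (right). Circles are subunit genes, filled where the adjusted p was below 0.05, and squares are medians of 10 equal bins of all tested genes, from -0.17 in the shortest to 0.11 in the longest in normoxia.

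The trend on gene length and GC content was taken out of every library over all genes. In normoxia 23 members were then called lower and none higher, against 3.17% of all genes called and 364 of 17788 genes called lower. The median of the members was -0.17. Of the 23, 21 were among the 41. By complex 7, 1, 4, 6 and 5 were called, with medians of -0.15, -0.13, -0.20, -0.23 and -0.19. Ndufb9 was at -0.21 (adjusted p = 0.0147), Uqcrfs1 at -0.20 (adjusted p = 0.00825), Cox6b1 at -0.27 (adjusted p = 0.00238), Atp5b at -0.20 (adjusted p = 0.0063) and Atp5k at -0.20 (adjusted p = 0.0409). Sdhb (-0.17, adjusted p = 0.052) lost its call. In hypoxia 13 members were called lower, 12 of them among the 16, with a median of -0.14, against 1.57% of all genes called. With the trend of length alone removed, the counts were 17 and 5, against 2.18% and 0.703% of all genes.

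Of the 41 normoxia calls, 11 held in all 21 alternatives tried: Cox5b, Ndufa10, Atp5e, Atp5k, Cox6a1, Cox6b1, Atp5b, Uqcrfs1, Cox6c, Ndufb9 and Cox8a. None of the 16 hypoxia calls held in all 22. No called member changed sign in any of them.

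Other genes of the pathway are given by list, and whether a list differed from the members was not tested. Between the genotypes, 6.35% of all genes were called in normoxia and 1.87% in hypoxia. Unadjusted edgeR p-values below 0.05 were given to 4064 and 3232 of the 17788 genes. Of the 13 subunits encoded in mitochondrial DNA, none was called in normoxia (3 at an unadjusted p below 0.05 by edgeR), with a median of 0.01 and 8 values above 0. In hypoxia, mt-Co2, a catalytic subunit gene of complex IV, fell (-0.34, SE 0.0719, adjusted p = 0.0169), and the complex I genes mt-Nd4 (0.22, SE 0.0569, adjusted p = 0.0482) and mt-Nd1 (0.21, SE 0.0554, adjusted p = 0.0497) rose. Over all libraries mt-Co2 ran from 105 to 184 CPM, beside 6390 to 8265 CPM for mt-Co1. Whether this low count bears on the mt-Co2 call was not tested. The median of the 13 in hypoxia was 0.15. Averaged over conditions, 2 of the 13 rose and 1 fell. Mitochondrial transcripts took 2.14% to 2.99% of the counts of a library.

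Assembly factors build the complexes but are not part of them. In normoxia, 2 of 13 measured complex I factors fell (Ndufaf3, -0.28, adjusted p = 0.0395, and Ndufaf8, -0.36, adjusted p = 0.0498) and 2 of 17 complex IV factors (Coa3, -0.30, adjusted p = 0.017, and Cox14, -0.29, adjusted p = 0.0454). None of 4 complex II, 6 complex III or 5 ATP synthase factors was called by edgeR, with 1, 2 and 3 at an unadjusted p below 0.05. Medians of these 5 lists ran from -0.08 to -0.05. In hypoxia Coa3 (-0.27, adjusted p = 0.0374) and Surf1 (-0.30, adjusted p = 0.0131) fell and the rest were not called. Averaged over conditions, 2 of 13 complex I, 1 of 6 complex III, 4 of 17 complex IV and 2 of 5 ATP synthase factors fell. No factor rose and no complex II factor was called, against 13.1% of all genes called.

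Of 15 measured genes for electron carriers and coenzyme Q synthesis, Cyc1, the cytochrome c1 of complex III, fell in normoxia (-0.31, SE 0.0663, adjusted p = 0.00925), and Pdss2, which makes the side chain of coenzyme Q, rose (0.25, SE 0.0478, adjusted p = 0.00502). Cyc1 is a subunit that the symbol rule does not reach. Of 14 citric acid cycle genes 3 fell, among them Mdh2 (-0.24, adjusted p = 0.016) and Fh1 (-0.18, adjusted p = 0.0298), with a list median of -0.12 and 12 values below 0. In hypoxia edgeR called none of these, with 2 carrier and 6 cycle genes at an unadjusted p below 0.05. Averaged over conditions, 8 of the 14 cycle genes fell and none rose, and of the 15 carrier genes 3 fell and 1 rose. Over all genes 13.1% were called in this average.

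Of 12 measured regulators of mitochondrial biogenesis, Yy1, a transcription factor that binds many subunit promoters, rose in normoxia (0.20, SE 0.0553, edgeR adjusted p = 0.037). The 12 values ran from -0.23 to 0.34, with 9 above 0 (median 0.03). By edgeR 4 of the 12 had an unadjusted p below 0.05, and not all of these are named here. Ppargc1a, which encodes the coactivator PGC-1α, was at 0.14 (adjusted p = 0.284), Nrf1 at 0.11 (adjusted p = 0.145), Gabpa at 0.03 (adjusted p = 0.831) and Tfam, which packs mitochondrial DNA, at 0.02 (adjusted p = 0.867). Averaged over conditions, 1 of the 12 rose and none fell.

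The promoter windows of the members were searched for short motifs on both strands, from 250 bases before to 50 after the RefSeq start, in 1 window per gene. Of the 89 members 69 matched the RefSeq table, and 67 of them were tested. Tested members that did not match included Atp5a1, Atp5mpl, Cox4i2, Cox6c, Cox6c2, Ndufa2, Ndufa4l2, Ndufb9, Ndufs1, Sdhc, Uqcrb, Uqcrc2 and Uqcrq. The NRF1 letters GCGCANGCG occurred in 19 of the 67 windows (28.4%), and in 6.47% of the 27025 windows of all genes. The ETS letters CCGGAAG occurred in 14 (20.9%, all genes 9.12%), the YY1 letters AAGATGG in 10 (14.9%, all genes 6.48%) and the ERR letters AAGGTCA, bound by estrogen-related receptors, in 8 (11.9%, all genes 4.66%).

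Between members called lower in normoxia and those not called, these shares were a description without a test. NRF1 letters were in 11 of 34 called members (32.4%) and 8 of 33 others (24.2%), and ETS letters in 10 of 34 (29.4%) and 4 of 33 (12.1%). The letters of hypoxia response elements, ACGTG and GCGTG, were in 26.9% and 50.7% of the members' windows and in 19.7% and 32.5% of all windows. The A form was in 6 of 34 called members and 12 of 33 others. Sdhd, Uqcr11, Cox6a1, Atp5h, Atp5k and Atp5l hold both the NRF1 and the ETS letters.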

How the data were processed

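RNA came from flash-frozen whole hippocampus, and libraries were made with a stranded kit, per the labels' protocols. Per the file headers, the authors ran featureCounts 1.6.2 on Ensembl release 90 annotation of GRCm38 and deposited unnormalized counts for each gene. The command there counts over whole gene bodies, introns included, without a strand setting, and the alignment files are named as having duplicates removed. Read pairs over more than 1 gene are dropped by default, so members under other genes lose counts, wholly so for Cox4i1, Ndufa13, Cox6a2, Ndufb4c and Ndufs6b. The submitters' processing notes name HISAT2, mm10 and DESeq2 1.6.3.

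Symbols came from GENCODE M21 for 52403 of 52636 genes, and genes without a symbol held 0.0427% to 0.101% of a library's counts. Genes were kept with filterByExpr (minimum count 10), scaled by TMM and fitted in 1 edgeR 4.0.16 quasi-likelihood model (robust, newer dispersions) with 4 group means in R 4.3.3, and 7 contrasts were tested two-sided over 17788 genes. CPM used the same scaling, and library medians a prior count of 2. Alternatives were RLE factors, DESeq2 1.42.0, no filter, removal of trends with length and GC (splines with 5 degrees of freedom), a choroid plexus covariate, fewer libraries and each library left out. The trend of length alone and edgeR's older dispersions were added after seeing the data. The fits were tested on simulated data.

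Replicates were numbered in accession order. No 2 libraries of a group were copies: over 55 pairs the chi-square divided by its degrees of freedom was at least 5.03. The members and gene lists were chosen with earlier results of these data known. Members named are the catalytic and redox subunits, the isoform genes, the 3 lowest p of each complex and contrast, the extremes and all called members, apart from items that are not reported here. Of other lists, up to 3 genes with the lowest p are named, and any beyond these, such as Gabpa and Tfam, were chosen after their values were seen.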

Additional observations from a re-analysis of the deposited data

Results flagged for a closer look

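The levels of 23 subunit genes in the 4 groups (92 sets of values) were checked for a library far from the rest of its group by Dixon's ratio of the gap to the range, which chance passes in about 1 set in 20. There were 5 such values. Sdhb in P301S normoxia replicate 1 was at 86.0 CPM, while the other 4 libraries ran from 76.5 to 78.7 CPM. Uqcrc1 in P301S hypoxia replicate 6 was at 17.4 CPM, beside 10.6 to 12.3 CPM. Cox5b in WT hypoxia replicate 6 was at 123 CPM, beside 98.1 to 105.5 CPM. In WT normoxia replicate 1, Atp5b was at 759 CPM beside 855 to 889.6 CPM, and Atp5a1 at 651 CPM beside 697 to 718 CPM. In 4 of the 5 the library lay toward the other genotype, and Cox5b lay away from it.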

How the results depend on the processing

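In normoxia, the 41 members called lower became 23 with length and GC trends removed, 19 without the 6 libraries lowest in choroid plexus markers, 22 with WT libraries of title numbers 66 and 31 alone, 21 with only the 2 groups in the fit, 17 with the length trend alone removed, and 15 to 51 with 1 library left out. In hypoxia, the 16 became 10 without the filter (0.711%), 0 without the 6 libraries (0.089%) and 2 with the title numbers (0.258%). They were 7 with the 2 groups (1.07%) and 5 with the length trend removed (0.703%). With 1 library left out they ran from 5 to 31 (0.513% to 3.48%). The averaged genotype count of 60 ran from 40 to 64, and from 53 to 63 with 1 library left out. DESeq2 called 53 members in normoxia (10.1%) and 24 in hypoxia (6.06%). All these calls were lower in P301S, and the cause of the changes in count was not tested. For hypoxia in P301S the 1 member higher became 5 with DESeq2 and 0 without the filter, with the choroid plexus covariate, without the 6 libraries, with the title numbers and with the 2 groups, and 0 to 1 with 1 library left out. For hypoxia averaged over genotypes 0 became 3 with DESeq2 and 2 with length and GC trends removed (Atp5b and Atp5a1). For the interaction it was 0 to 1 with 1 library left out (Cox8a, without P301S normoxia replicate 1).

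Values near 0 changed sign in normoxia. Ndufs1 was at -0.0456 with length and GC trends removed and -0.0239 with the length trend alone removed, Ndufs4 at 0.0068 with the title numbers, Cox7a1 at -0.0724 without the 6 libraries and Cox6b2 at 0.0049 with length and GC trends removed. With 1 library left out, Ndufs1 ran from -0.0209 to 0.0497, Ndufs4 from -0.0549 to 0.0094, Cox4i2 from -0.1295 to 0.1657 and Cox7a1 from -0.0779 to 0.1546.

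No paired analysis was possible because replicate numbers follow accession order alone and the numbers in the titles are shared within WT groups only. At a total of 19.1 to 25.8 M counts, Cox4i2, Ndufa4l2 and Cox7a1, with means under 2 CPM, had SEs of about 0.2 on the log2 scale. Cox8b, also under 2 CPM on average, had a larger SE in the normoxia comparison of the genotypes, given above. A value of 0.41 for Ndufa4l2 with hypoxia in WT did not pass the test (edgeR adjusted p = 0.423).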

Other observations

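Genes beside the rule gave further values. Ndufb1-ps, left out by its pseudogene name, had 28.5 ± 2.01 CPM in WT normoxia and 23.6 ± 2.14 CPM in P301S normoxia, and fell by 0.27 (SE 0.0672, edgeR adjusted p = 0.021). Atp5k-ps2, a pseudogene copy of Atp5k, fell by 0.46 in normoxia (SE 0.13, edgeR adjusted p = 0.0388) and was at -0.01 in hypoxia (adjusted p = 0.98). Usmg5, a small subunit of the ATP synthase under an older name, was at -0.17 in both conditions (adjusted p = 0.0773 in normoxia and 0.114 in hypoxia), and averaged over conditions it fell by 0.17 (SE 0.0408, adjusted p = 0.00798). Atpif1, the inhibitor of the ATP synthase, was at -0.15 in normoxia (adjusted p = 0.275), and Cycs, the soluble cytochrome c, at -0.10 (adjusted p = 0.353).

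Stretches of the genome with almost no counts held or bordered members. Around Ndufs3 on chromosome 2, Mtch2 had a median of 774 counts per library, then C1qtnf4 had 6, Ndufs3 3, Kbtbd4 0, Celf1 28 and Rapsn 0, and Psmc3, the next gene listed, had 2838. Of these, Ndufs3 overlaps another gene over 0.863% of its length and Celf1 over none of it.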
